A study of Mus musculus with 2 samples.

Results

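Calcineurin is the calcium-activated phosphatase that moves NFAT transcription factors into the nucleus, and the 9 genes described here encode its subunits, its inhibitors and the NFAT factors. The genes are Ppp3ca, Ppp3cb, Ppp3r1, Rcan1, Rcan2, Nfatc1, Nfatc2, Nfatc3 and Nfatc4. They were chosen by name as members of the pathway, out of 37310 genes annotated for mm9 in GENCODE vM1, and all 9 were found there. Each was measured by the Mbnl2 HITS-CLIP tags that overlapped it on its own strand, split by 3'UTR, coding exon, 5'UTR, other exon and intron.

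In HITS-CLIP, UV light ties a protein to RNA in contact with it, RNase A shortens that RNA, and the fragments pulled down with the protein by an antibody are sequenced as tags. Mbnl2 was immunopurified from quadriceps muscle of WT and Mbnl1-/- (Mbnl1 KO) mice of 15 to 16 weeks, 3 mice per genotype. The authors asked whether Mbnl2 makes up for the loss of Mbnl1 by binding at splicing events that Mbnl1 regulates. The strain is labelled C57BL/6, whereas the methods name a C57BL/129 background for the compound knockouts, and the Mbnl1 allele is a constitutive deletion named for exon 3. The mice of a genotype are merged into 1 table, so every comparison is between 2 merged libraries and no test between genotypes was made.

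In muscle fibres, calcium released during repeated contraction binds calmodulin, which switches on calcineurin, a heterodimer of a catalytic A subunit and a calcium-binding B subunit. Calcineurin removes phosphates from NFAT proteins, which then enter the nucleus and take part in setting slow fibre gene programmes and muscle growth. Rcan proteins bind calcineurin and inhibit it. Mbnl proteins bind RNA at short motifs with GC between pyrimidines, here TGCT, then also TGCC, then CGCT, and last CGCC, in introns where they affect splicing and in 3'UTRs where they affect localization and stability.

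In WT 343554 tags came from 5176203 reads, and in Mbnl1 KO 476543 tags came from 50329234 reads. A single read lay behind 79.0% of WT tags and 59.5% of those in Mbnl1 KO. Tags of mostly one base, with at least 70% of their reference sequence a single letter, made up 44.0% of the WT and 17.0% of the Mbnl1 KO tags. Counts were normalised to 1000000 tags of the table. The Mbnl1 KO count so normalised was divided by that of WT, and this ratio is given with an exact Clopper-Pearson 95% interval, which covers counting error only. Counts of 3 tags, a normalised count of 8.73 in WT and 6.30 in Mbnl1 KO, were taken as the floor. The rows of each table run in sorted blocks that form 3 sets per genotype, called WT a, WT b, WT c, KO a, KO b and KO c here, of 47008 to 250572 tags. The KO sets have the tag totals of single mice in the tag summary and the WT sets do not, the tables do not name the sets as mice, and set values are given as a description. The Mbnl1 exon with the start codon (chr3:60332678-60333726, plus strand), a stand-in for the deleted exon, had 5 WT and 2 Mbnl1 KO tags, too few to check the labels. The 8 skeletal muscle fibre markers had 879 WT and 3088 Mbnl1 KO tags, with none at 0, against 9 and 7 for leucocytes, 29 and 73 for endothelium, 143 and 596 for fibroblasts, 1 and 13 for adipocytes, 32 and 48 for neurons, 4 and 3 for heart and 11 and 18 for slow fibres. RNA levels were not analysed here, so more RNA of a gene in the muscle, more cells that express it and more Mbnl2 on each RNA cannot be told apart.

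Over the 9 genes together, Mbnl2 tags were more frequent in Mbnl1 KO than in WT muscle, mostly in 3'UTRs. There were 139 WT tags and 529 Mbnl1 KO tags, normalised counts of 405 and 1110, a ratio of 2.74 (interval 2.27 to 3.33). The 3'UTRs held 53 and 316 tags, a ratio of 4.30 (3.21 to 5.86), and the introns 78 and 189, a ratio of 1.75 (1.34 to 2.30). Summed over all protein-coding genes, the ratio was also above 1, 1.61 in the gene body and 2.94 in the 3'UTR. Ppp3ca alone gave 198 of the 529 Mbnl1 KO tags and 108 of the 316 in 3'UTRs. In the sets, the 9 genes had normalised counts of 404, 272 and 522 in WT a, b and c, and 1086, 1273 and 1050 in KO a, b and c. All KO sets lay above all WT sets over the gene bodies. In the introns the sets overlapped, with normalised counts of 299 in WT c and 270 in KO b.

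By gene, 7 of the 9 had a ratio whose interval lay above 1, namely Ppp3ca, Ppp3cb, Ppp3r1, Rcan2, Nfatc1, Nfatc2 and Nfatc3. Of the 3877 protein-coding genes with at least 20 pooled tags, 38.4% had such an interval, and 6 of the 7 members that reached 20 tags did. The interval lay below 1 at 1 member, Rcan1, as it did at 3.84% of those genes, and the interval of Nfatc4 included 1. Nfatc1, with 19 pooled tags, and Nfatc4, with 14, did not reach the minimum. The ratio was above 2 at 7 of the 9, and at 6 of the 7 that reached the minimum, against 41.5% of genes. All KO sets lay above all WT sets at 7 of the 9, and at 6 of the 7 with the minimum, against 44.1% of genes. The median ratio was 2.81 over the 9 genes and 1.74 over the 3877.

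**Figure D1:**
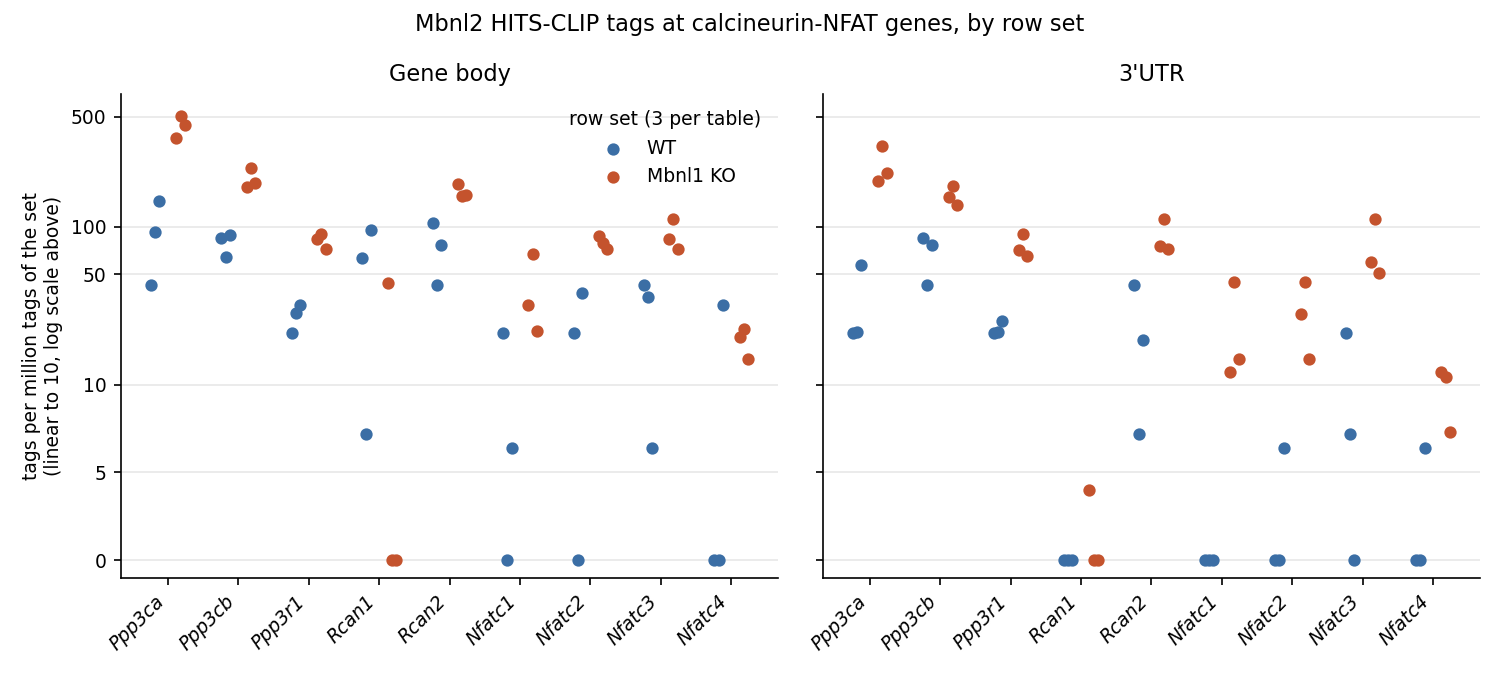
Mbnl2 tags per 1000000 tags of a row set (vertical axis, linear to 10 and log above) over the gene body and the 3'UTR of each of the 9 genes; points are the sets a, b and c from left to right, blue for WT and red for Mbnl1 KO. All KO gene body points of Ppp3ca, Ppp3cb, Ppp3r1, Rcan2, Nfatc1, Nfatc2 and Nfatc3 lie above the WT points of the gene, whereas those of Rcan1 and Nfatc4 overlap with WT.

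The level of these ratios depends on what they are scaled to. With single-base tags left out, the factor that multiplies a raw ratio went from 0.721 to 0.492, a change of -0.55 on the log2 scale before the tags a gene itself loses are counted. The ratio went to 3.17 at Ppp3ca and 0.259 at Rcan1, and 5 of the 9 intervals stayed above 1 (background 26.3% of 3296 genes), those of Ppp3ca, Ppp3cb, Rcan2, Nfatc2 and Nfatc3. Scaling to the median cluster of tags shifted every gene by -0.83 and left 1 interval above 1, that of Ppp3ca (background 10.5%). With at least 2 reads per tag, 2 intervals lay above 1, those of Ppp3ca and Nfatc3 (background 18.6% of 1732 genes), and 2 with single-base tags also left out (background 10.5% of 1641). With identical tags collapsed there were 6 (background 31.0% of 3254), and with tags that share a 5' end collapsed 5 (background 29.2% of 3170). The ratio of Nfatc4 was 0.729 scaled to the median cluster, 0.747 with 2 reads, 0.886 without single-base tags and 0.627 with both of these. The gene body ratio divided by the median gene ratio of 1.74 does not depend on the scaling, and it was 2.16 at Ppp3ca, 1.42 at Ppp3cb, 1.62 at Ppp3r1, 0.240 at Rcan1, 1.499 at Rcan2, 3.53 at Nfatc1, 2.31 at Nfatc2, 2.13 at Nfatc3 and 0.748 at Nfatc4. By point value, Rcan1 and Nfatc4 were thus below the median gene and the other 7 above it. The main intervals of Ppp3cb, Ppp3r1, Rcan2, Nfatc1, Nfatc3 and Nfatc4 included 1.74, so counting error alone could place them on either side. Those of Ppp3ca and, narrowly, Nfatc2 (lower limit 1.78) lay above 1.74, and that of Rcan1 lay below it.

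Ppp3ca encodes the alpha form of the catalytic subunit and had the most tags of the 9 genes. Its body (chr3:136333088-136600691, plus strand) had 2, 13 and 23 tags in WT a, b and c and 92, 45 and 61 in KO a, b and c. Normalised to the set, these were 42.5, 93.1 and 147 in WT and 367, 507 and 445 in Mbnl1 KO. The groups did not overlap, and WT a, the smallest set, was the lowest. The merged tables had 38 WT and 198 Mbnl1 KO tags, normalised counts of 111 and 415, a ratio of 3.76 (2.64 to 5.47).

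The 3'UTR of Ppp3ca, 2502 nt long, held 13 WT and 108 Mbnl1 KO tags (KO/WT ratio 5.99, 3.36 to 11.6). By set these were 1, 3 and 9 tags in WT and 49, 29 and 30 in Mbnl1 KO. When the 3'UTR was cut in 3 equal parts, the first held 2 WT and 36 Mbnl1 KO tags, the middle 11 and 68, and the last 0 and 4. The tags formed 4 clusters of at least 10 overlapping tags pooled over both tables. The 30-nt windows at the summit of each cluster, where the most tags overlapped, are shown because these clusters hold most of the 3'UTR tags. They are on the plus strand of mm9, with these motifs in capitals, in the order of their distance from the stop codon.
Ppp3ca site 1, chr3:136598446-136598475: taaaaagaaagctaaTGCTagtctatactg
Ppp3ca site 2, chr3:136599038-136599067: gttgataaatcaagtcttggttgtggcttg
Ppp3ca site 3, chr3:136599115-136599144: gacaccatagtgcagtgatgaagcctctat
Ppp3ca site 4, chr3:136599178-136599207: cTGCCtatgcatgttttttaaggaaaaaaa

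Sites 1 and 4 held a motif and sites 2 and 3 did not. Site 1, 272 nt after the stop codon, lay in a cluster of 2 WT and 22 Mbnl1 KO tags (KO/WT ratio 7.93, 1.95 to 69.6), with 10, 8 and 4 tags in KO a, b and c. Site 4, at 1004 nt, was in the cluster with the most Mbnl1 KO tags, 27 against 2 in WT, a ratio of 9.73 (2.45 to 84.5), with 10, 8 and 9 in the KO sets. Site 2, at 864 nt, had 4 WT and 17 Mbnl1 KO tags and its interval reached just below 1 (0.999 to 12.5). Site 3, at 941 nt, had 0 WT and 14 Mbnl1 KO tags, at least 3.36-fold higher in Mbnl1 KO when WT is set to the floor of 3 tags. All 4 clusters had fewer than 10 WT tags and reached the minimum through their Mbnl1 KO tags. That choice favours a high ratio, so the ratios of the sites are a description. The same holds for Ppp3cb sites 1, 3 and 4 and Ppp3r1 site 1 below. A smaller group of 8 tags at 728 nt was also seen in the KO sets only, with 3, 1 and 4 tags in KO a, b and c.

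Ppp3cb encodes the beta form of the catalytic subunit, and about 4 in 5 of its tags lay in the 3'UTR in both genotypes. The body (chr14:21318586-21365795, minus strand) had 4, 9 and 14 tags in WT a, b and c and 45, 21 and 26 in KO a, b and c. The normalised counts were 85.1, 64.5 and 89.2 in WT and 180, 237 and 190 in Mbnl1 KO. The WT sets were close to each other and below all KO sets. Merged, 27 WT and 92 Mbnl1 KO tags gave normalised counts of 78.6 and 193, a ratio of 2.46 (1.58 to 3.93).

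The annotated 3'UTRs of Ppp3cb held 22 WT and 74 Mbnl1 KO tags (KO/WT ratio 2.42, 1.49 to 4.10). All WT tags and 68 of the Mbnl1 KO tags were in the last exon, of 2120 nt, and the other 6 in the 828-nt 3'UTR of a shorter isoform (chr14:21326893-21327720). Of 3 equal parts of the last exon, the first held 0 WT and 4 Mbnl1 KO tags, the middle 16 and 58, and the last 6 and 6. There were 5 3'UTR clusters of at least 10 tags, more than in the 3'UTR of any other of the 9 genes. Their summit windows are shown in the same way, on the minus strand and in the order from the stop codon.
Ppp3cb site 1, chr14:21319700-21319729: accagggtgattTGCTGCTggctttgtatc
Ppp3cb site 2, chr14:21319602-21319631: agaagcaatggttctcttcaacccttcaga
Ppp3cb site 3, chr14:21319523-21319552: tgatagttacagaacTGCTtggttaaacta
Ppp3cb site 4, chr14:21319426-21319455: ctttactttggtggccTGCTtccctcatgc
Ppp3cb site 5, chr14:21319249-21319278: aaattccatgcatgggcCGCTGCTcctatc

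All but site 2 held a motif, and sites 1 and 5 held 2 each, which overlap by their shared T. Site 1, 991 nt after the stop codon, had 8 WT and 17 Mbnl1 KO tags (KO/WT ratio 1.53, 0.627 to 4.10). Site 5, at 1442 nt, had 5 WT and 6 Mbnl1 KO tags (KO/WT ratio 0.865, 0.220 to 3.58). These were the clusters of the 9 genes' 3'UTRs with the most WT tags, and neither interval excluded 1. Site 4, at 1265 nt, had 2 WT and 13 Mbnl1 KO tags (KO/WT ratio 4.69, 1.06 to 42.8), and both WT tags came from WT a. Site 3, at 1168 nt, had 3 and 13 tags and site 2, at 1089 nt, had 3 and 7, with intervals of 0.858 to 17.1 and 0.384 to 10.1.

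Ppp3r1 encodes the calcium-binding regulatory subunit B of the type found outside testis. Its body (chr11:17059266-17100378, plus strand) had 1, 4 and 5 tags in WT a, b and c and 21, 8 and 10 in KO a, b and c. All KO sets were above all WT sets in normalised counts. The merged tables had 10 WT and 39 Mbnl1 KO tags, normalised counts of 29.1 and 81.8, a ratio of 2.81 (1.38 to 6.32). In the 3'UTR, of 2069 nt, there were 8 and 35 tags, a ratio of 3.15 (1.44 to 7.87). The body overlaps the annotated gene Wdr92 on the same strand, in whose span lay 9 of the WT and 36 of the Mbnl1 KO tags, so an RNA of Wdr92 could have given them, though none was on a Wdr92 exon.

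Its 1 cluster of at least 10 tags is shown because it stood near the far end of the 3'UTR, 1851 nt after the stop codon, unlike the clusters of the catalytic subunits.
Ppp3r1 site 1, chr11:17100145-17100174: ctctTGCTtgtgcatatcttggctggcgtt

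The cluster held 2 WT tags, both from WT c, and 15 Mbnl1 KO tags, with 8, 3 and 4 in KO a, b and c, a ratio of 5.41 (1.26 to 48.7). The Mbnl1 KO tags there rested on 10478 reads. A group of 3 WT and 3 Mbnl1 KO tags lay at 636 nt, with 1 tag in each WT set. Of 3 equal parts of the 3'UTR, the first held 3 WT and 6 Mbnl1 KO tags and the last 3 and 20.

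**Figure D2:**
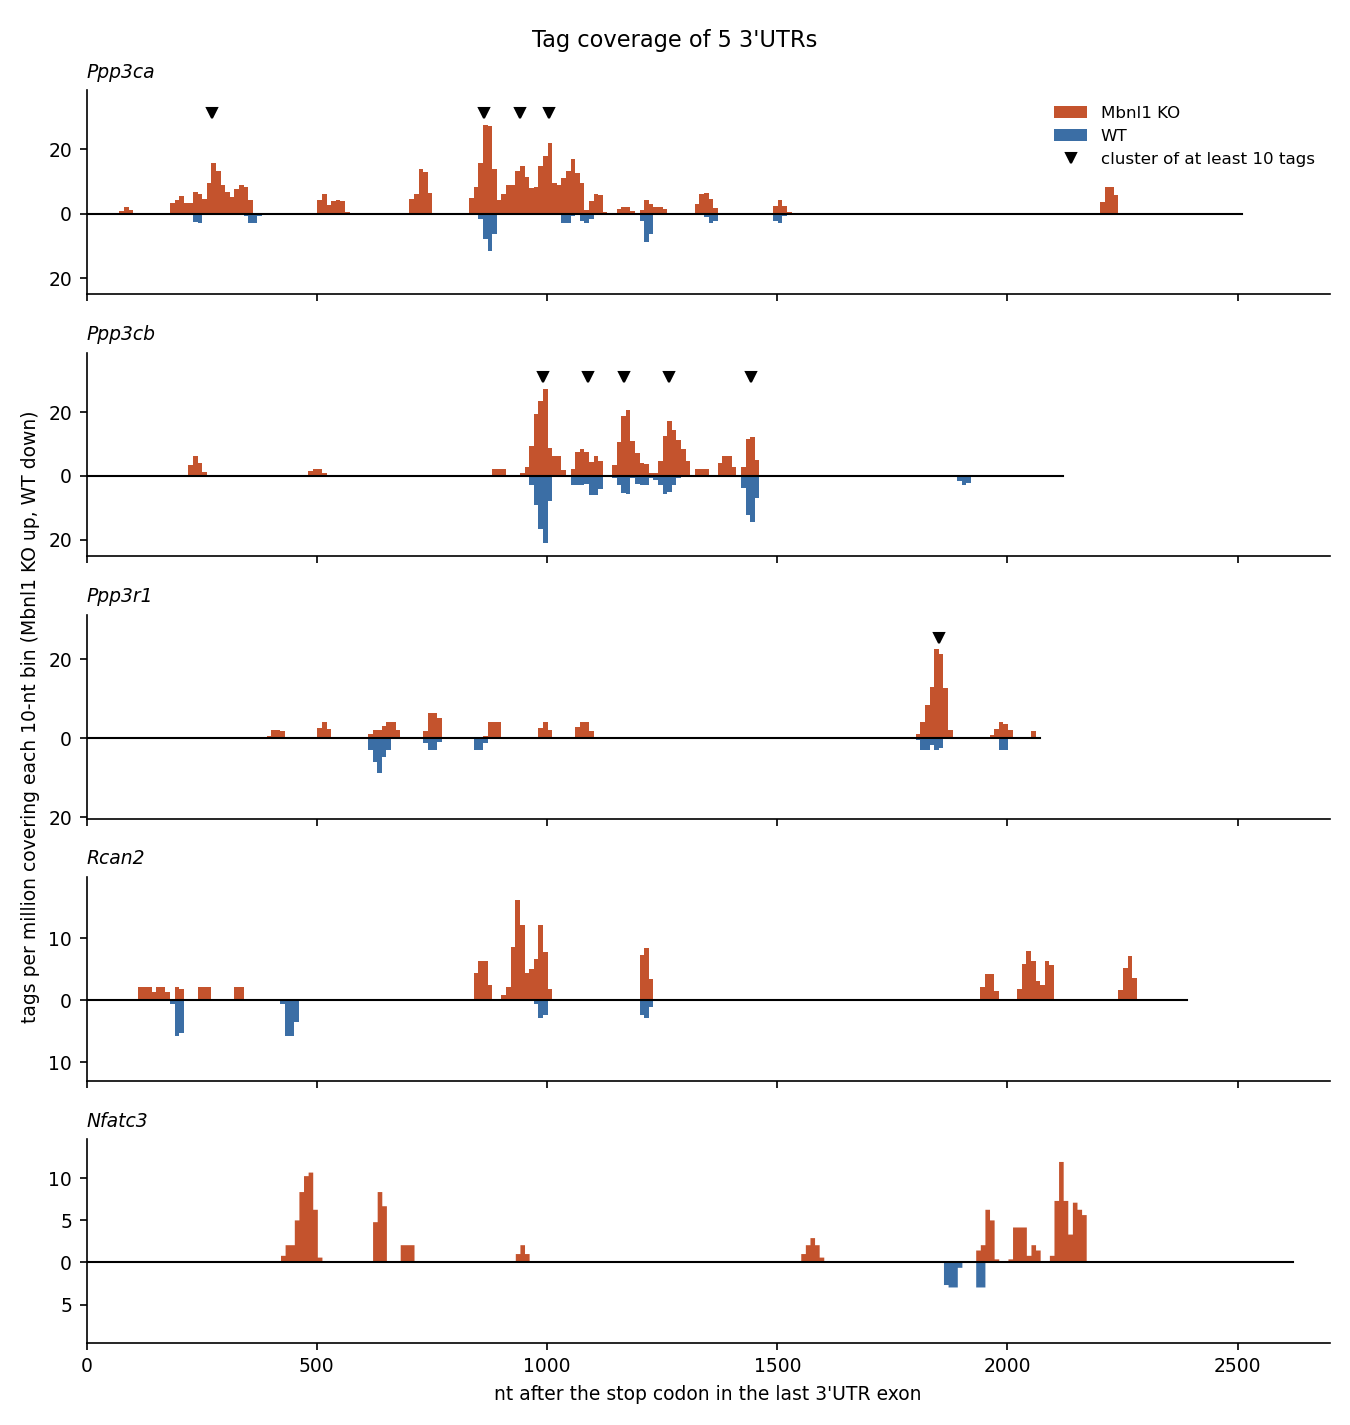
Tags per 1000000 covering each 10-nt bin (vertical axis, Mbnl1 KO in red upward and WT in blue downward) by distance from the stop codon in the last 3'UTR exon (horizontal axis, nt) of 5 genes; triangles mark summits of clusters of at least 10 tags. Coverage of Ppp3ca and Ppp3cb gathers before 1500 nt, Ppp3r1 has its highest peak at 1851 nt, and the Ppp3cb summits at 991 and 1442 nt are those with the highest WT coverage.

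Across all 3'UTR clusters of the subunit genes, 9 of the 10 had a ratio above 1 and 5 an interval above 1, against 96.5% and 44.5% of the 1085 3'UTR clusters of all protein-coding genes. Together they held 31 WT and 151 Mbnl1 KO tags. A motif was in the summit window of 7 of the 10 clusters (70%), against 811 of those 1085 (74.7%). The same motifs, searched on the gene's strand with overlaps counted, were in 254 of 834 consecutive 30-nt windows of the 9 genes' 3'UTRs (30.5%) and in 28.2% of those of all protein-coding 3'UTRs. The share at these summits was thus near that of other clusters. The number of motifs per 100 nt of 3'UTR was 1.09 to 1.63 over the 9 genes and 1.26 over all protein-coding 3'UTRs, with 1.63 in Nfatc4, which had 1 WT and 5 Mbnl1 KO tags there, and 1.28 in Ppp3ca.

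Rcan1 encodes a calcineurin inhibitor whose transcription calcineurin and NFAT are known to drive, and it was the only member with a lower normalised count in Mbnl1 KO than in WT, a ratio below 1 that 20.1% of the 3877 genes also had. Its body (chr16:92392198-92466391, minus strand) had 3, 1 and 15 tags in WT a, b and c and 11, 0 and 0 in KO a, b and c. The normalised counts were 63.8, 7.16 and 95.6 in WT and 43.9, 0 and 0 in Mbnl1 KO. The groups overlapped, since WT b was below KO a. The merged tables had 19 WT and 11 Mbnl1 KO tags, normalised counts of 55.3 and 23.1, a ratio of 0.417 (0.179 to 0.923), lower than all but 84 of the 3877 genes. The direction rests on WT c, without which the ratio was 1.08 (0.319 to 4.64). Without WT b it was 0.262, and without KO a there were 0 Mbnl1 KO tags. The interval included 1 without KO b (upper limit 1.13) or KO c (1.30), and with identical tags collapsed (1.06), tags with a shared 5' end collapsed (1.25), raw tags (1.28) or Mbnl1 KO reads thinned at random to the WT read total (1.33). With tags of at least 30 nt there were 1 WT and 0 Mbnl1 KO tags.

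All 19 WT tags of Rcan1 and 10 of the 11 Mbnl1 KO tags were intronic, and the 3'UTR, of 1500 nt, held 0 and 1, both at or under the floor. The first intron, of 65.8 kb, had 19 WT and 9 Mbnl1 KO tags. Within it was the only cluster of at least 10 tags in the 9 genes whose interval lay below 1. Its summit window, on the minus strand, is shown because it sits in a repeat.
Rcan1 site 1, chr16:92458708-92458737: cgcagtgagggaggatgcgcagtgagggag

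The cluster held 9 WT and 1 Mbnl1 KO tags (KO/WT ratio 0.0801, 0.00183 to 0.578), with 3 tags in WT a, 6 in WT c and 1 in KO a. No motif was in this window. The run cgcagtgagggag appears more than once in it, 17 nt apart, and 5 times in the intron, all within 115 nt (chr16:92458691-92458805). Counted after these values were seen, tags over that stretch numbered 13 in WT and 2 in Mbnl1 KO, a ratio of 0.111 (0.0122 to 0.490). The rest of Rcan1 had 6 WT and 9 Mbnl1 KO tags (KO/WT ratio 1.08, 0.344 to 3.69). Since the stretch was picked for its WT tags, this split is a description, and the interval of the rest still includes the ratio of the whole gene. The part that read placement in repeats has in the ratio was not tested.

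Rcan2 encodes the second calcineurin inhibitor of the list, and unlike Rcan1 it had more tags in Mbnl1 KO. Its body (chr17:43938800-44176465, plus strand) had 5, 6 and 12 tags in WT a, b and c and 47, 14 and 22 in KO a, b and c, and all KO sets were above all WT sets once normalised. The merged tables had 23 WT and 83 Mbnl1 KO tags, normalised counts of 66.9 and 174, a ratio of 2.60 (1.62 to 4.33). The 3'UTR, of 2383 nt, had 2, 1 and 3 tags in the WT sets and 19, 10 and 10 in the KO sets, a ratio of 4.69 (1.97 to 13.5). No 3'UTR cluster reached 10 tags. Smaller groups were 8 Mbnl1 KO and 0 WT tags at 933 nt after the stop codon, with 4, 2 and 2 in the KO sets, and 6 and 1 at 987 nt.

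The introns of Rcan2 held 17 WT and 44 Mbnl1 KO tags (KO/WT ratio 1.87, 1.04 to 3.48). Most were in the third intron, of 117 kb, with 15 and 31 tags, and its interval included 1 (0.780 to 2.97). In the introns the sets overlapped, since the normalised count was 45.1 in KO b and 63.8 in WT a.

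**Figure D3:**
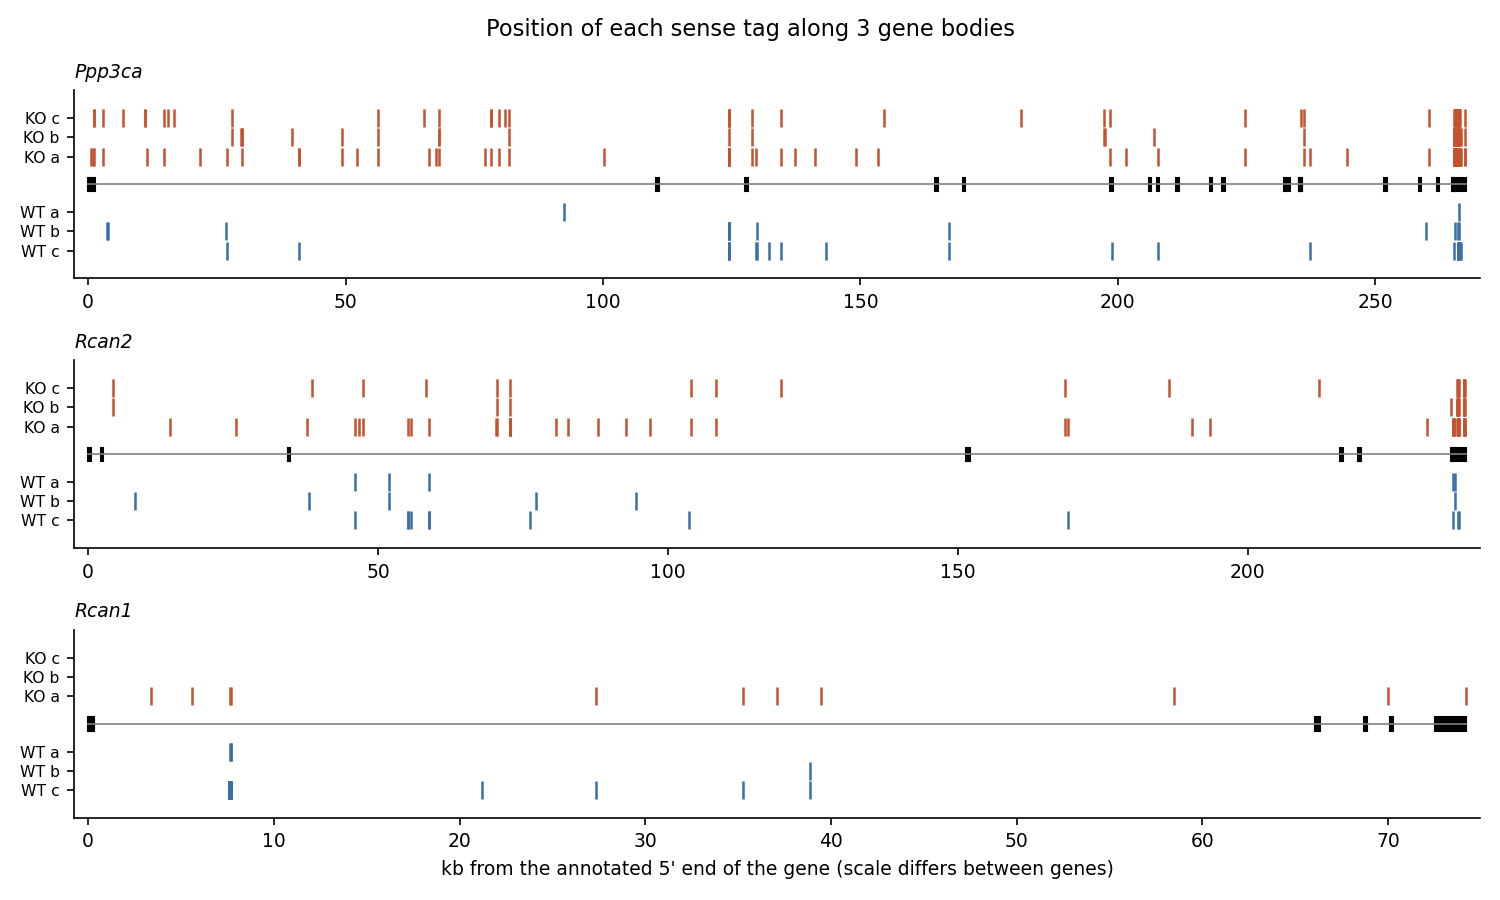
Position of each sense tag (vertical ticks) in kb from the annotated 5' end of Ppp3ca, Rcan2 and Rcan1 (horizontal axis, a different scale for each gene), 1 row per set, Mbnl1 KO in red above and WT in blue below the gene line; black boxes are exons. Tags of Ppp3ca and Rcan2 gather in the last exon and are spread over the introns, whereas Rcan1 has 1 dense spot of WT tags near its 5' end and none in KO b or KO c.

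Nfatc1 encodes an NFAT factor that is itself induced by calcineurin, and it had the fewest WT tags of the 9 genes. Its body (chr18:80802944-80909810, minus strand) had 1, 0 and 1 tags in WT a, b and c and 8, 6 and 3 in KO a, b and c. All KO sets were above all WT sets once normalised, 17 tags in all against 2, a ratio of 6.13 with a wide interval (1.45 to 54.7). It was 10.6 without WT a, and 3.64 without WT b, when the interval included 1 (0.864 to 32.5). Of the Mbnl1 KO tags, 9 were in the 3'UTRs, where WT had 0, at least 2.16-fold higher when WT is set to 3 tags. They were split over the 3'UTRs of different isoforms, with 2 in the shorter isoform and 7 in the last exon.

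Nfatc2 encodes an NFAT factor of skeletal muscle and lymphocytes that takes part in myoblast fusion. Its body (chr2:168301910-168427157, minus strand) had 1, 0 and 6 tags in the WT sets and 22, 7 and 10 in the KO sets. The merged counts were 7 and 39, normalised to 20.4 and 81.8, a ratio of 4.02 (1.78 to 10.6), which was 15.3 without WT c and 2.38 without WT b. The 3'UTRs had 1 WT and 13 Mbnl1 KO tags (KO/WT ratio 9.37, 1.41 to 398), of which 7 of the Mbnl1 KO tags were in the last exon of 3840 nt and 6, with the WT tag, in the 1183-nt 3'UTR of an alternative end. The introns had 5 and 17, and KO b had none of them.

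Nfatc3 encodes an NFAT factor expressed in muscle precursors and fibres. Its body (chr8:108582740-108654437, plus strand) had 2, 5 and 1 tags in WT a, b and c and 21, 10 and 10 in KO a, b and c, and all KO sets lay above all WT sets once normalised. The merged counts of 8 and 41 were 23.3 and 86.0 once normalised, a ratio of 3.69 (1.71 to 9.12), which was 5.85 without WT b and 2.29 without WT c. In the 3'UTR there were 1, 1 and 0 tags in the WT sets and 15, 10 and 7 in the KO sets, 2 against 32 (KO/WT ratio 11.5, 2.94 to 99.3). The introns had 5 WT and 9 Mbnl1 KO tags. Of the Nfatc3 tags, 2 of 8 in WT and 32 of 41 (78.0%) in Mbnl1 KO lay in the 3'UTR.

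No cluster of Nfatc3 reached 10 tags. Smaller groups of 7 and 9 Mbnl1 KO tags lay 480 and 2118 nt after the stop codon, and they were picked after it was seen that WT had no tags there. Both WT tags were in the last of 3 equal parts of the last exon, as were 15 of its 31 Mbnl1 KO tags.

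Nfatc4 encodes an NFAT factor best known from heart and nervous system, and its counts were too low to set the genotypes apart. Its body (chr14:56443632-56452780, plus strand) had 0, 0 and 5 tags in WT a, b and c and 5, 2 and 2 in KO a, b and c. The ratio of the merged 5 and 9 tags was 1.30 (0.391 to 4.93) and went to 0.770 without WT b, and all WT tags came from WT c. Of these, 1 WT and 5 Mbnl1 KO tags were in the 3'UTR, a ratio of 3.60 (0.403 to 170).

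**Figure D4:**
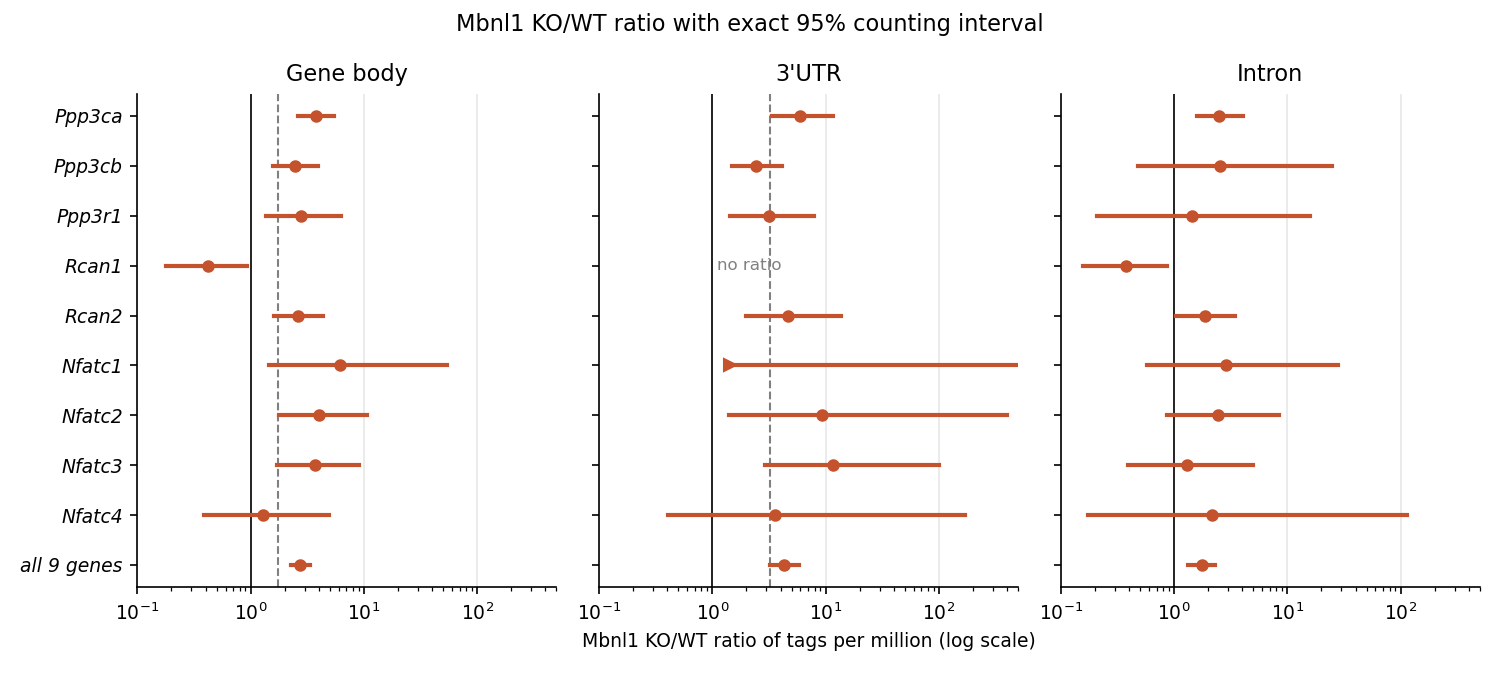
Mbnl1 KO/WT ratio of normalised counts (horizontal axis, log scale) in the gene body, 3'UTR and introns of each gene and of all 9 together, with exact 95% counting intervals; the solid line is 1, the dashed lines are the median gene body ratio of 3877 protein-coding genes (1.74) and the median 3'UTR ratio of 866 (3.24), and the triangle is the lower limit of a gene without WT tags. The summed 3'UTR ratio (4.30) is above the summed intron ratio (1.75), and Rcan1 lies below 1 in the gene body and the introns, a direction that is lost without WT c.

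Compared by length, the 3'UTR of Ppp3ca had the most Mbnl1 KO tags, 43.2 per kb (exact Poisson interval 35.4 to 52.1). It was followed by Ppp3cb with 25.1 (19.7 to 31.5), Ppp3r1 with 16.9 (11.8 to 23.5), Rcan2 with 16.4 (11.6 to 22.4) and Nfatc3 with 9.11 (6.23 to 12.9). Nfatc4 had 4.53 tags per kb (1.47 to 10.6), Nfatc2 2.57 (1.37 to 4.39), Nfatc1 2.17 (0.990 to 4.11) and Rcan1 0.667 (0.0169 to 3.71). Only the intervals of Ppp3ca and Ppp3cb were apart among neighbours in this order. In WT, Ppp3cb came first with 7.46 tags per kb (4.68 to 11.3), then Ppp3ca with 5.20 (2.77 to 8.89), and these did not differ beyond their intervals. The NFAT genes and Rcan1 were all under 1 tag per kb in WT.

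An interval above 1 was found in the 3'UTR of 7 of the 9 genes, and of all 5 with at least 20 3'UTR tags, but this was so for 77.8% of the 866 protein-coding 3'UTRs with as many tags. All KO sets were above all WT sets in the 3'UTR at 8 of the 9, all but Rcan1, and at all 5 with 20 tags, against 82.3%. These shares were near those of 3'UTRs in general. Relative to the median 3'UTR ratio of 3.24, Ppp3ca stood at 1.85, Ppp3r1 at 0.972, Ppp3cb at 0.747, Rcan2 at 1.44 and Nfatc3 at 3.56. By point value, the 3'UTR ratios of the subunit genes thus lay on both sides of the median 3'UTR. Of the genes just named, only Ppp3ca (3.36 to 11.6) had an interval that left out 3.24.

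The 3'UTR share of sense tags was 38.1% of the 139 WT tags (30.03 to 46.7) and 59.7% (55.4 to 63.9) of the 529 in Mbnl1 KO, and these intervals did not overlap. They overlapped with tags of at least 30 nt, with at least 2 reads, and with 2 reads and single-base tags left out. Over all protein-coding genes the share was 16.4% in WT and 29.9% in Mbnl1 KO. The share of Ppp3cb was 81.5% (61.9 to 93.7) in WT and 80.4% (70.9 to 88.0) in Mbnl1 KO, and that of Ppp3r1, on 10 WT tags, 80% (44.4 to 97.5) and 89.7% (75.8 to 97.1). Ppp3ca had 34.2% (19.6 to 51.4) and 54.5% (47.3 to 61.6), and the intervals of each of these genes overlapped. Coding exons of the 9 genes held 7 WT and 12 Mbnl1 KO tags, 5'UTRs 0 and 2, and other exons 1 and 10, so the exonic tags outside 3'UTRs were few.

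**Figure D5:**
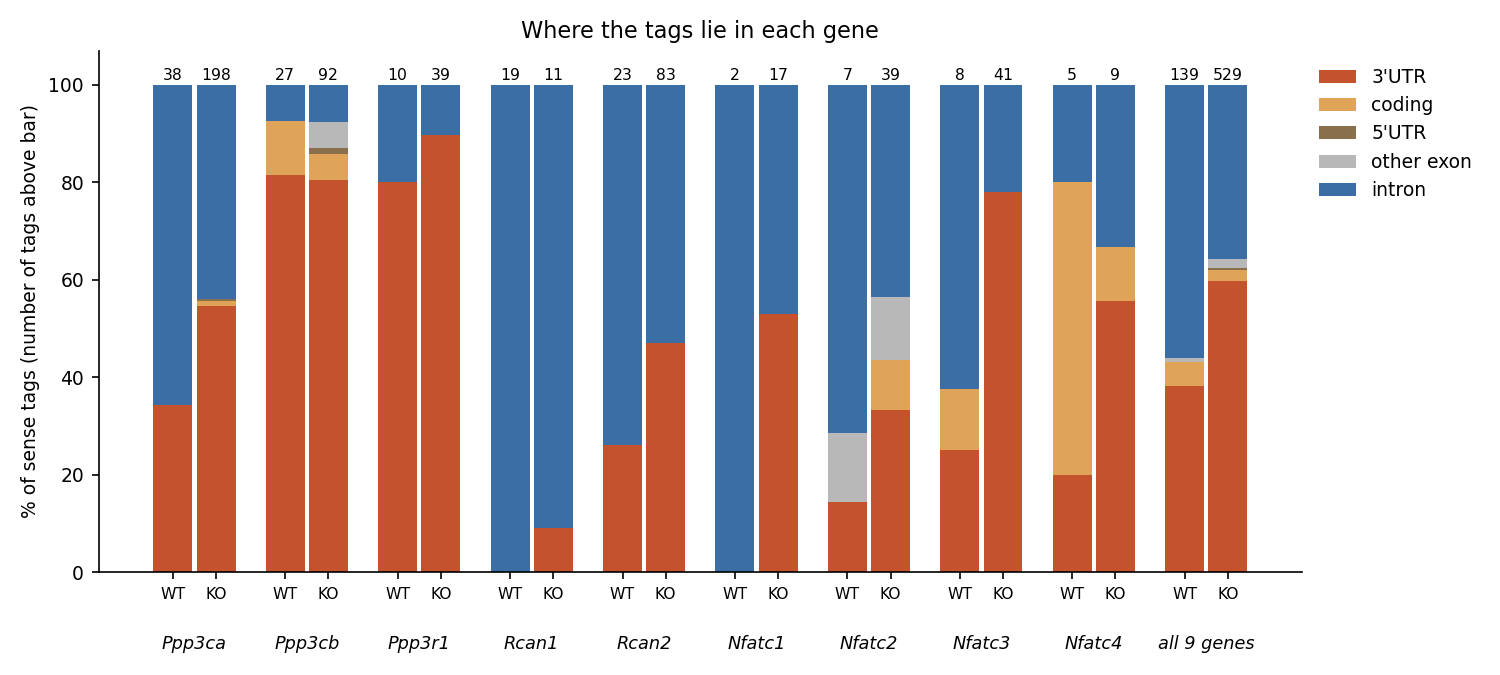
Share of the sense tags of each gene (vertical axis, percent) in 3'UTR, coding exon, 5'UTR, other exon and intron, for WT and Mbnl1 KO side by side, with the number of tags above each bar. Ppp3cb and Ppp3r1 are mostly 3'UTR in both genotypes, Rcan1 mostly intron, and the 9 genes together go from 38.1% to 59.7% 3'UTR.

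Ppp3ca had the most intron tags of the 9 genes, 25 in WT and 87 in Mbnl1 KO, and a ratio of 2.51 (1.59 to 4.09). Its first intron, of 109.6 kb, had 6 and 49 tags, a ratio of 5.89 (2.52 to 16.8). Its second intron had 7 and 10, all from one 41-nt cluster at a run of A (chr3:136457621-136457661), where 16 of the 17 tags were single-base tags. Of the intron tags of the 9 genes, 5 of 78 in WT and 16 of 189 in Mbnl1 KO lay within 500 nt of an exon. The share of intron sequence that lies so near an exon was not computed. These counts therefore do not show whether the tags avoid or favour exons. With single-base tags left out the summed intron ratio was 1.27 and its interval included 1 (0.953 to 1.71), while the summed 3'UTR ratio was 2.93 (2.19 to 4.00).

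On the other strand, the 9 genes had 47 WT and 48 Mbnl1 KO tags, against 139 and 529 on their own strand. The 10 kb downstream of the genes, up to the next gene on the strand, held 5 and 6 tags. Tags of the 9 genes started and ended at 122 distinct positions in WT and 372 in Mbnl1 KO, of which 47 were in both. By tag midpoint, the shared positions of Rcan1 (3), Rcan2 (8) and Nfatc2 (5) each joined WT c with KO a. At Ppp3cb and Nfatc4, other pairs of sets also shared midpoints. Why WT c and KO a share positions was not tested, and the comparisons by set treat them as separate.

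Of 26 other genes of the pathway listed for comparison, all were annotated and 15 had at least 20 pooled tags. The interval lay above 1 at 9 of these 15, included 1 at 6 and lay below 1 at none (background 38.4% and 3.84%), and the median ratio was 1.98. Among the phosphatase and its partners, Ppp3cc, the gamma form of the catalytic subunit, had 9 WT and 12 Mbnl1 KO tags (KO/WT ratio 0.961, 0.372 to 2.58). Cabin1, which inhibits calcineurin, had 5 and 21, a ratio of 3.03 (1.11 to 10.3), and Akap6, which anchors it at the nuclear envelope, 23 and 63, a ratio of 1.97 (1.21 to 3.34). Fkbp1a, the binding protein through which FK506 blocks calcineurin, had 24 and 97, a ratio of 2.91 (1.85 to 4.77), of which 21 and 90 were 3'UTR tags. Chp1, a calcineurin B homologue annotated as 1500003O03Rik, had 39 and 122, a ratio of 2.26 (1.56 to 3.32). Myoz1, which ties calcineurin to the Z disc, had 7 and 15, and its interval included 1.

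Of the genes upstream, the calmodulin genes Calm2 and Calm3 had 4 and 20 and 8 and 22 tags, ratios of 3.60 (1.21 to 14.5) and 1.98 (0.850 to 5.15). Itpr1, the calcium release channel opened by inositol trisphosphate, had 19 and 53 tags, a ratio of 2.01 (1.17 to 3.60). Stim1, the calcium sensor of the sarcoplasmic reticulum, had 19 and 47, a ratio of 1.78 (1.03 to 3.22). Of the kinases that rephosphorylate NFAT, Csnk1a1 had 16 and 102 tags, a ratio of 4.60 (2.70 to 8.34), the highest of the 15. Dyrk1a, with 29 and 62 tags, and Gsk3b, with 21 and 45, both had 1.54, with intervals that included 1. Nfat5, an NFAT relative that does not need calcineurin, had 16 and 52 tags, a ratio of 2.34 (1.32 to 4.40).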

How the data were processed

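Mbnl2 HITS-CLIP of WT and Mbnl1 KO quadriceps was deposited as 1 table for each genotype. The authors' steps were read filtering, alignment to mm9 with BWA (version not given in the sources used here), removal of short sequences and of likely PCR duplicates, and merging of 3 mice. The deposited count in each row gives the reads behind that tag and is not normalised. Tags were 18 to 33 nt, so the tables hold some below the minimum length that the methods state, and the RNase condition of a tag is not recorded.

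Tags were counted by any overlap with GENCODE vM1 regions on the gene's strand, each in 1 class in the order 3'UTR, coding, 5'UTR, other exon, intron, using Python 3.11.15, numpy 2.4.6, pandas 2.3.3, scipy 1.17.1 and matplotlib 3.10.9. Clusters are runs of overlapping tags, pooled over both tables. The intervals were tested on simulated Poisson counts and the counting on a made-up gene. The simulated counts had no spread between mice, so this test says nothing of how the intervals fare with such spread. No p-value was computed, since each genotype is 1 table. All 9 genes are named. Other pathway genes are named at 20 or more pooled tags, except 1 that is not reported here, and clusters and their windows are described at 10 or more, whereas the smaller groups of tags given were chosen after their values were seen. The genes and lists were chosen with earlier results of these data known. Alternatives were other scalings, collapsed tags, tag length, midpoint counting, a minimum of 2 reads, tags without single-base tags, thinned reads, and each row set left out, the last chosen after seeing the data.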

Additional observations from a re-analysis of the deposited data

How the results depend on the processing

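No paired analysis was possible because each genotype is 1 merged table. Of 18 alternatives for the ratios and shares, 12 were planned and 6, which leave out 1 row set each, were chosen after seeing the data. Ppp3ca, Ppp3cb, Ppp3r1, Rcan2, Nfatc1, Nfatc2 and Nfatc3 had a ratio above 1 under every alternative that gave one. In the main setting only 20.1% of the 3877 genes were below 1, and this share was not counted under the alternatives. Some of the ratios were near 1, such as 1.16 (0.492 to 3.18) at Ppp3r1 with at least 2 reads and without single-base tags. None could be had where WT was left with 0 tags, at Rcan2, Nfatc1 and Nfatc4 with tags of at least 30 nt and at Nfatc4 without WT c. The summed gene body ratio was 3.81 with raw tags, 1.54 scaled to the median cluster, 7.36 with tags of at least 30 nt, 1.79 with at least 2 reads, 1.97 without single-base tags, 1.51 with both of these and 4.19 with thinned Mbnl1 KO reads. The summed 3'UTR ratio was in the same order 5.96, 2.41, 10.3, 2.43, 2.93, 2.04 and 7.01. The summed intron ratio was 2.42, 0.981, 4.23, 1.14, 1.27, 0.95 and 2.32, so it was below 1 when scaled to the median cluster and without single-base tags at 2 reads. The number of genes with an interval above 1 was 1 scaled to the median cluster, 2 with at least 2 reads and 2 with single-base tags also left out. It was 6 with identical tags collapsed, where Nfatc1 was lost, and 5 with a shared 5' end collapsed, where Ppp3r1 was lost too, and the interval of Rcan1 included 1 in both, as it did with raw tags, thinned reads and tags of at least 30 nt. The Mbnl1 KO 3'UTR share was 55.4% with identical tags collapsed, 53.7% with a shared 5' end collapsed, 67.4% at 30 nt, 65.8% at 2 reads and 66.6% with single-base tags also left out, and the WT share 48.4%, 48.6% and 49.3% in the last 3. Leaving out each set gave 2.24 to 3.63 for the gene body ratio, lowest without WT b and highest without WT c, 3.47 to 5.38 for the 3'UTR, 1.42 to 2.39 for the intron ratio, 6 to 7 genes (6 without WT b), and shares of 56.2% to 63.0% in Mbnl1 KO and 36.7% to 40.4% in WT. Rcan1 went to 1.08 without WT c. At a minimum of 20 tags, also planned, 4 of the 12 clusters were left, since fewer clusters reach it. The other causes were not tested. Scaling does not enter the shares. Depth limits Rcan1, Nfatc1 and Nfatc4, whose merged counts are under 20 in each table. It also limits Ppp3r1, Nfatc2 and Nfatc3, which had 10, 7 and 8 WT tags.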
